A study of Mus musculus with 8 samples.

Results

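The integrins described here are the collagen receptor α chains *Itga1*, *Itga2*, *Itga10* and *Itga11*, the laminin receptor chains *Itga3*, *Itga6*, *Itga7* and *Itgb4*, and the α4 and α9 chains *Itga4* and *Itga9*. They were taken from the count table by gene symbol. All 10 were found among 55471 genes, and 0 of the symbols occurred more than once. SV-LEC is a mouse lymphatic endothelial line derived from adventitial tissue of the mesentery and immortalized with SV40, and it was grown in high-glucose DMEM with 10% FBS. The groups were untreated SV-LECs and SV-LECs that had received TGFβ1 at 10 ng/ml for 72 h. Each group comprised 4 poly(A) libraries, 8 together. The study describes the quadruplicates as technical replicates of 1 line, so the p-values measure only the spread between these libraries.

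Integrins are receptors made of 1 α and 1 β chain, which link the extracellular matrix or a neighbouring cell to the cytoskeleton. The α chains of *Itga1*, *Itga2*, *Itga10* and *Itga11* pair with β1 and bind collagens through an inserted domain. The chains of *Itga3*, *Itga6* and *Itga7* pair with β1 to bind laminins of the basement membrane, and α6 also pairs with β4, the long chain that anchors hemidesmosomes to keratin filaments. The α4 chain, best known from lymphocytes, pairs with β1 or β7 and binds VCAM-1, MAdCAM-1 and fibronectin. The α9 chain pairs with β1, binds tenascin and the fibronectin EIIIA segment, and is known in lymphatic endothelium for its part in valve formation.

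The libraries held between 18952504 and 26386941 counts, so that 3 counts corresponded to between 0.113 and 0.162 CPM (counts scaled by library totals after TMM normalization). Pairs of libraries of 1 group differed by more than sampling noise (chi-square per degree of freedom between 2.37 and 7.84). Several markers of the labelled cell type were absent or nearly so, and others were detected. Of 6 lymphatic markers, *Ccl21a* had 0 counts and *Prox1*, *Lyve1* and *Reln* had at most 3 in any library, while *Flt4* and *Pdpn* were detected and the list summed to between 344 and 381 CPM in untreated and between 337 and 347 CPM in treated libraries. Of 7 general endothelial markers, *Tie1* and *Erg* had 0 counts and *Cdh5* and *Emcn* at most 3. *Kdr* and *Tek* passed the filter on low counts and *Pecam1* did not. The sum of the list went from 11.5–13.1 to 22.1–23.9 CPM. Of the 5 fibroblast markers, none was at 0 in all libraries, but *Lum* did not pass the filter on low counts. The 5 summed to 3202–4535 CPM without and 5526–6655 CPM with TGFβ1. Without *Col1a1* the other 4 went down from 494–539 to 200–226 CPM, with *Pdgfra* and *Dcn* lower (log2 fold changes -1.47 and -1.91). The 3 smooth muscle markers summed to 7.40–9.19 and 25.0–27.3 CPM. The part of these marker levels in the results below was not tested. In such bulk RNA, fewer cells of a type and less RNA per cell cannot be told apart.

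Treatment with TGFβ1 was followed by changes in both directions among the integrin genes. Of the 10 genes, 9 passed the filter on low counts and *Itga9* did not. None of the untreated libraries of *Itga2* and *Itga4*, and 2 of the 4 of *Itga10*, reached the filter's 0.477 counts per 1e6 reads, so that these genes were tested because of their treated libraries, and for *Itga2* and *Itga4* a rise was then bound to follow. The calls of *Itga2*, *Itga4* and *Itga10* are given as a description. Transcripts of *Itga2*, *Itga10*, *Itga11*, *Itga6*, *Itgb4* and *Itga4* rose, and those of *Itga1*, *Itga3* and *Itga7* fell (edgeR likelihood ratio test, Benjamini-Hochberg adjusted p under 0.05 over 13818 genes). Among all tested genes, 37.6% were called higher and 38.0% lower after TGFβ1, 75.6% in either direction, so that a call was the common outcome and is not a result about the integrins as a set. The same 9 genes had groups that did not overlap, 6 with every treated library above and 3 with every treated library below every untreated one, against 34.7% and 35.1% of all tested genes, 69.8% in either direction. As a description, the median log2 fold change of the 9 tested genes was 1.71, the value of *Itga10*. It was 1.08 for the 9 tested of 16 other integrin subunits and -0.01 for all tested genes. The median of 1.71 includes *Itga2*, *Itga4* and *Itga10*, which were tested because of their treated libraries. That of 1.08 includes *Itgb7*, which reached the filter in treated libraries alone. These medians are therefore not ranked against each other. Of the tested members that reached the filter in all libraries, *Itga1*, *Itga3* and *Itga7* fell and *Itga11*, *Itga6* and *Itgb4* rose.

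**Figure D1:**
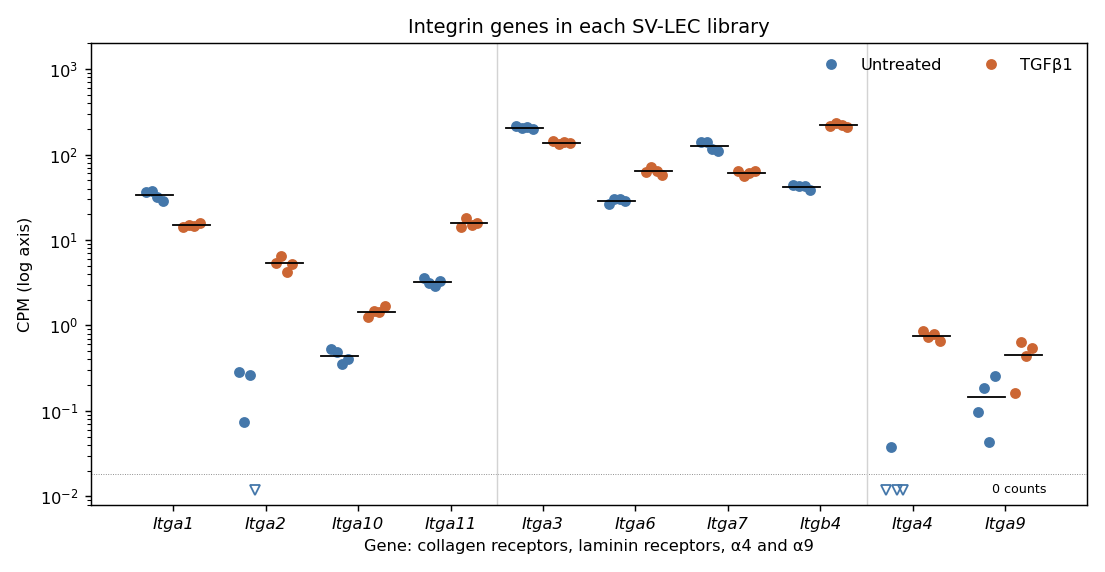
CPM of the 10 integrin genes (log axis) in each of the 4 untreated and 4 TGFβ1-treated SV-LEC libraries, 1 point a library, with the mean as a black line where all libraries have counts and libraries with 0 counts as open triangles under the dotted line. The groups overlap for *Itga9* and for no other of these genes, and the untreated libraries of *Itga4* hold 1 count in all.

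**Figure D2:**
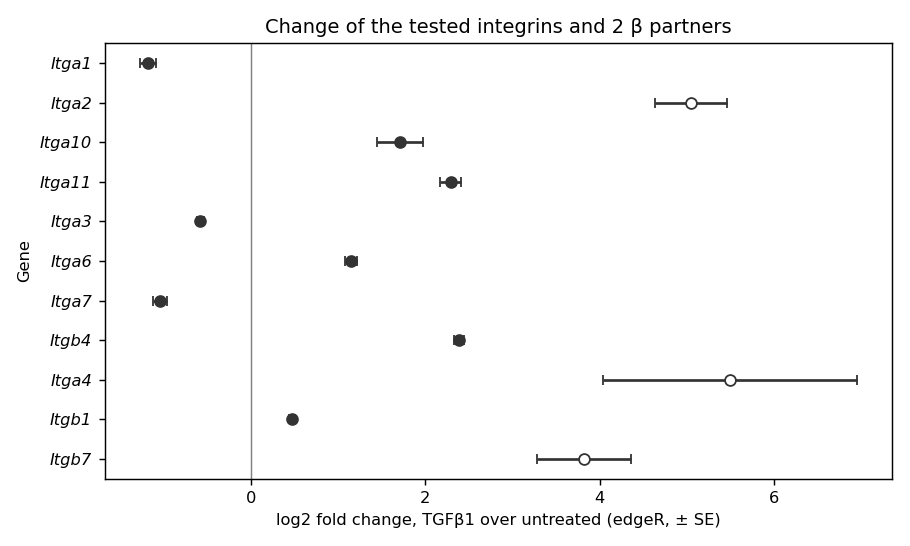
Log2 fold change, TGFβ1 over untreated, with its standard error (edgeR) for the 9 tested integrin genes and for the β partners *Itgb1* and *Itgb7*, with open symbols for *Itga2*, *Itga4* and *Itgb7*, which have untreated libraries at 0. The values run from -1.18 for *Itga1* to 5.49 for *Itga4*, whose standard error of 1.46 is the widest.

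A short stretch just inside the membrane is common to many α chains and holds the α tail against the β tail. It was searched for in the coding sequences as a run of codons in frame on the coding strand, namely a GGN codon, a pair of TTN codons, an AAN codon and a codon with G in the second place, where N is any base. It was present in 7 of the 9 α genes and in 65 of 21584 genes with a complete coding transcript (0.301%). The letters were not found in *Itga10* or *Itga9*, nor in the β chain *Itgb4*, which says only that this exact pattern was missing from their annotated coding sequences. The matches are shown, from GENCODE M21 transcripts and with the motif in capitals, because they are the sequence that these receptors share whichever way their transcripts moved. *Itga6* has 2 of them, 1 for each of its alternative cytoplasmic tails, and gene counts do not separate these.
Itga1: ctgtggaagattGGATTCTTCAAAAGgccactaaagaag
Itga2: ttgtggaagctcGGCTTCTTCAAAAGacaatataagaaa
Itga11: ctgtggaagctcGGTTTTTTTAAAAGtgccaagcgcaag
Itga3: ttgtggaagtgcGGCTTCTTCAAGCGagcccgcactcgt
Itga6 (Itga6-201): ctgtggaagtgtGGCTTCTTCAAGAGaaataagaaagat
Itga6 (Itga6-202): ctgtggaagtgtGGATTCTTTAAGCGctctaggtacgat
Itga7: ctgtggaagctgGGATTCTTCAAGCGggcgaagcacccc
Itga4: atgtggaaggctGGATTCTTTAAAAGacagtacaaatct

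Among the collagen receptors, the gene with the highest level in untreated cells fell and the other 3 rose. *Itga1* (ENSMUSG00000042284, chr13:114953096-115101964 on the minus strand, GRCm38) encodes α1, which prefers basement membrane collagen IV. It was read at 36.6, 37.9, 31.8 and 28.7 CPM in the untreated libraries and at 14.4, 14.8, 14.4 and 15.9 CPM in the treated ones. Every treated library lay below every untreated one, and the treated libraries were closely grouped. The mean went from 33.7 ± 4.28 to 14.9 ± 0.732 CPM (SD, n = 4 libraries each), a 2.27-fold lower level with a log2 fold change of -1.18 (SE 0.0906, adjusted p = 6.24e-38). The gene model Gm49395 on the same strand covers 3.68% of its exon bases and had 9 counts in all libraries together.

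*Itga2* (ENSMUSG00000015533, chr13:114833081-114932100, minus strand) lies on the same strand, 20995 bases from *Itga1*, and encodes α2, a receptor that prefers fibrillar collagen I and is known from platelets and epithelia. It moved the other way. The untreated libraries held 6, 2, 6 and 0 counts (0.289, 0.0750, 0.262 and 0 CPM) and the treated libraries 100, 133, 87 and 134 counts (5.40, 6.47, 4.28 and 5.19 CPM). *Itga2* was thus near the limit of detection without TGFβ1 and clearly above it in each treated library. The 454 treated against 14 untreated counts gave a ratio of 34.3 (95% exact Clopper-Pearson interval 20.2 to 63.2, counting error only), and the fitted log2 fold change was 5.05 (SE 0.409). Since *Itga2* met the filter through its treated libraries alone, no p-value is given.

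*Itga11* (ENSMUSG00000032243, chr9:62677826-62783982, plus strand) encodes α11, the collagen I receptor known from fibroblasts. Its level was 3.61, 3.15, 2.92 and 3.29 CPM in untreated and 14.3, 17.9, 15.0 and 16.0 CPM in treated libraries. The groups lay far apart relative to the spread within either. The mean rose from 3.24 ± 0.287 to 15.8 ± 1.56 CPM, 4.87-fold (log2 fold change 2.29, SE 0.121, adjusted p = 1.52e-86). *Itga10* (ENSMUSG00000090210, chr3:96645584-96664519, plus strand) encodes α10, the collagen receptor of chondrocytes. It stayed low, with 0.530, 0.488, 0.349 and 0.405 CPM before and 1.24, 1.46, 1.43 and 1.67 CPM after TGFβ1, and its groups did not overlap. The log2 fold change was 1.71 (SE 0.268), from 8 to 13 counts per untreated and 23 to 43 per treated library. No p-value is given, since *Itga10* needed its treated libraries to meet the filter. The gene model Gm42957 on the same strand covers 33.5% of the exon bases of *Itga10* but had 2 counts in all libraries together, so how reads were divided between them is uncertain.

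The make-up of the collagen receptor class changed along with its sum. Summed over the 4 genes, the CPM per kilobase of exon (RPKM, which allow levels to be compared between genes) were 2.26–2.82 in untreated and 4.56–5.47 in treated libraries. *Itga1* made up 70.9% of that sum without and 16.4% with TGFβ1, while *Itga11* went from 24.9% to 62.7%. *Itga2* went from 0.840% to 15.2% and *Itga10* from 3.33% to 5.70%. Within a library, the log2 ratio of *Itga1* to *Itga2* counts was 8.12 ± 1.60 without and 1.49 ± 0.243 with TGFβ1, a difference of -6.63, and the untreated value rests on the few *Itga2* counts. The log2 ratio of *Itga10* to *Itga11* was -2.82 ± 0.169 and -3.43 ± 0.150, a difference of -0.60, so the 2 rising genes of this pair did not rise equally. For these and the 3 ratios given later, the exact two-sided permutation p was 0.0286, also after adjustment over the 5 ratios, which is the smallest p that 4 against 4 libraries allow. The genes were chosen with earlier results of these data known, so this p is a description. That holds above all for ratios with *Itga2*, *Itga10* or *Itga4*, which were tested because of their treated libraries.

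**Figure D3:**
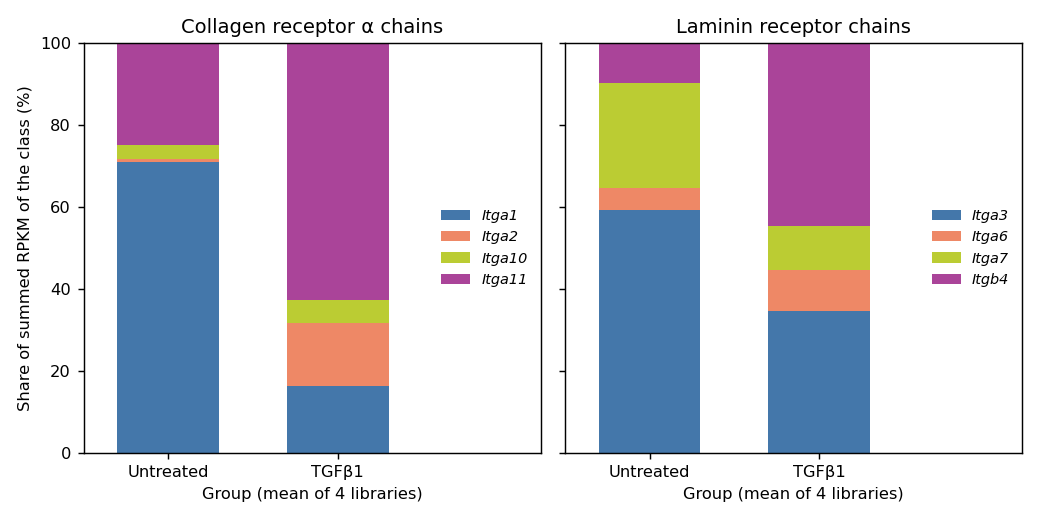
Share of each gene in the summed RPKM of its class (%, mean of 4 libraries), for the collagen receptor α chains and the laminin receptor chains, untreated and TGFβ1-treated. The leading share passes from *Itga1* (70.9%) to *Itga11* (62.7%) in the former and from *Itga3* (59.4%) to *Itgb4* (44.5%) in the latter.

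The sequences before the start sites of the neighbours *Itga1* and *Itga2*, which moved in opposite directions, and of *Itga11*, which rose, are shown for comparison. RefSeq promoters (GRCm38) were at hand for 7 of the 10 genes and not for *Itga6*, *Itga7* and *Itgb4*. The 250 bases before the start were searched on both strands for CAGAC, the letters that SMAD proteins recognise, for TGANTCA (AP-1) and for GGGCGG (GC box). A TGANTCA can share its last bases with CAGAC. Of 32851 promoters, 42.2% held CAGAC, 6.75% TGANTCA and 32.7% GGGCGG. The window of *Itga1* (chr13:115101965-115102214, minus strand) held 1 CAGAC, that of *Itga2* (chr13:114932101-114932350, minus strand) held 3, and that of *Itga11* (chr9:62677605-62677854, plus strand) held none. Capitals mark the matches, of which GTCTG is CAGAC on the other strand. Such matches are common and describe letters, not binding. None of the 7 genes had TGANTCA in the windows searched, and *Itga3* and *Itga4* had GGGCGG. The window of *Itga9* (chr9:118711442-118711691) lies inside the gene, which starts at 118606690, so the bases before that start were not searched. *Itga3* also has a window inside the gene (chr11:95069199-95069448). Its other window (chr11:95076715-95076964) and that of *Itga11* reach partly into the genes as their coordinates are given here.
Itga1: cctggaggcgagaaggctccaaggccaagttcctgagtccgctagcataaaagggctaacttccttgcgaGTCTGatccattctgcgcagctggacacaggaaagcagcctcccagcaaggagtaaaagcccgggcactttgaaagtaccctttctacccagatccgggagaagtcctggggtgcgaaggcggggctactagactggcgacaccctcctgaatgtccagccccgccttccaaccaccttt
Itga2: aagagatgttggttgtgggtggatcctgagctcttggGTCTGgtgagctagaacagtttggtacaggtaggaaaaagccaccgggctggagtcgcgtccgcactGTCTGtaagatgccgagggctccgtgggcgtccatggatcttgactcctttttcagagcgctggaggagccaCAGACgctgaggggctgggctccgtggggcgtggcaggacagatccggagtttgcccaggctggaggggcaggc
Itga11: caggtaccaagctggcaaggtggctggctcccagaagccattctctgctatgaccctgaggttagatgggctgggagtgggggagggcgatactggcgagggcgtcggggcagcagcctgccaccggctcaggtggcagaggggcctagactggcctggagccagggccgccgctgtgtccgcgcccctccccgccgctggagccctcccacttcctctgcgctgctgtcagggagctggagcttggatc

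Among the laminin receptors, *Itga3* and *Itga7* fell and *Itga6* and *Itgb4* rose. *Itga3* (ENSMUSG00000001507, chr11:95044474-95076801, minus strand) encodes α3, a receptor for laminins that contain the α3 or α5 chain. It was the most abundant of the 10 genes in untreated cells. Its level was 213, 207, 209 and 199 CPM in untreated and 143, 134, 140 and 136 CPM in treated libraries, with little spread in either group. The mean went from 207 ± 6.00 to 138 ± 4.01 CPM (log2 fold change -0.58, SE 0.0414, adjusted p = 4.48e-44). *Itga7* (ENSMUSG00000025348, chr10:128933818-128958282, plus strand), whose α7 product is the main laminin-binding integrin chain of muscle, was at 139, 142, 117 and 111 CPM and then at 63.4, 56.3, 61.2 and 65.0 CPM. All treated libraries were below all untreated ones, which among themselves fell into a higher and a lower pair. The log2 fold change was -1.05 (SE 0.0785, adjusted p = 2.48e-39), 2.07-fold lower.

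*Itgb4* (ENSMUSG00000020758, chr11:115974709-116008412, plus strand) encodes β4, which pairs only with α6. Untreated libraries gave 44.6, 42.4, 42.4 and 38.2 CPM and treated libraries 218, 232, 219 and 208 CPM. The lowest treated library was several times the highest untreated one. The mean rose 5.24-fold, from 41.9 ± 2.69 to 219 ± 9.95 CPM (log2 fold change 2.39, SE 0.0541). The likelihood ratio statistic was 1872, for which the adjusted p was too small to be represented, and the quasi-likelihood test gave an adjusted p of 5.13e-14. Its partner *Itga6* (ENSMUSG00000027111, chr2:71745616-71858416, plus strand) was at 26.4, 30.0, 30.1 and 28.6 CPM before and 61.8, 70.7, 64.5 and 58.4 CPM after TGFβ1. It rose 2.22-fold without overlap between the groups (log2 fold change 1.15, SE 0.0688, adjusted p = 5.86e-61). Of the 75-base stretches of its transcripts, 4.46% also occur in other genes.

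The shares of the laminin-binding chains changed as well. The summed RPKM of the 4 genes was 57.2–63.8 in untreated and 67.9–71.4 in treated libraries. *Itga3* went from 59.4% to 34.5% of it and *Itga7* from 25.6% to 10.8%, while *Itgb4* went from 9.75% to 44.5% and *Itga6* from 5.23% to 10.1%. Within a library the log2 ratio of *Itga6* to *Itga3* counts was -2.85 ± 0.110 without and -1.12 ± 0.136 with TGFβ1, a difference of 1.73. The log2 ratio of *Itga6* to *Itgb4* went the other way, from -0.54 ± 0.147 to -1.78 ± 0.0527, a difference of -1.24: transcripts of the β4 chain rose more than those of its α6 partner. On the opposite strand, B230344G16Rik overlaps 7.66% of the exon bases of *Itgb4*, and Mettl7b 0.111% of those of *Itga7*. The libraries were stranded, but the strand setting of the counting is not given in the sources used here.

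**Figure D4:**
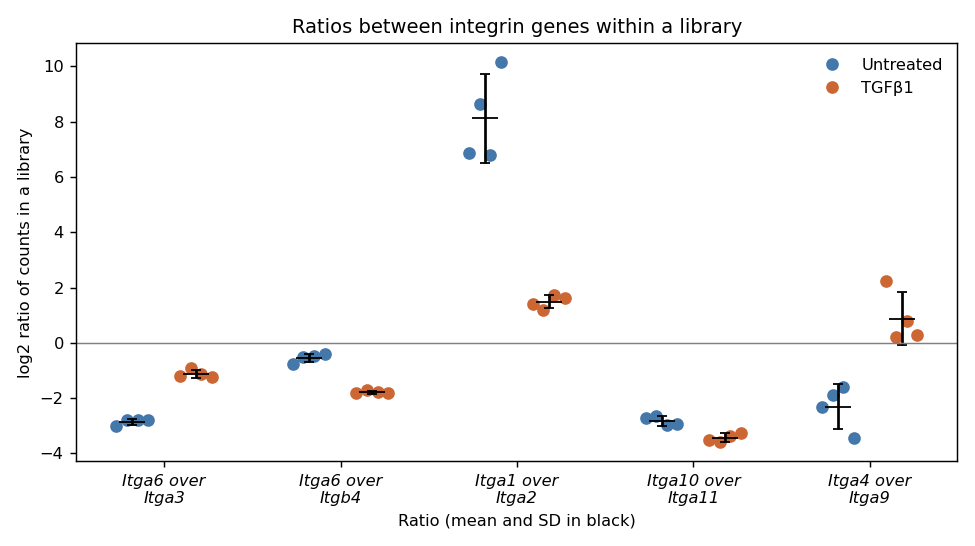
Log2 ratio of the counts of 2 integrin genes within each library, for 5 pairs, with the mean and SD of the 4 untreated and the 4 TGFβ1-treated libraries. No pair overlaps between the groups, and the difference is positive for *Itga6* over *Itga3* (1.73) and *Itga4* over *Itga9* (3.19) and negative for the other 3 pairs.

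The α4 and α9 chains were scarce throughout. *Itga4* (ENSMUSG00000027009, chr2:79255426-79333123, plus strand) had 0, 1, 0 and 0 counts in the untreated libraries and 16, 15, 16 and 17 counts in the treated ones (0.864, 0.729, 0.786 and 0.659 CPM). It was therefore at or under the floor of 3 counts in each untreated library and above it in each treated library. The 64 against 1 counts gave a ratio of 67.7 with a 95% exact interval of 11.7 to 2713, so the size of the change was poorly fixed by these counts (counting error only). The fitted log2 fold change of 5.49 (SE 1.46) depends on the prior count, and no p-value is given because the filter was met in the treated libraries alone. *Cerkl* overlaps 8.04% of its exon bases on the opposite strand and had 7 counts in all libraries together. Of 4 leukocyte markers, *Ptprc* and *Cd3e*, which define leukocytes and T cells, had at most 1 count in any library, while *Cd68* and *Itgb2* brought the summed list from 7.46–8.87 to 19.6–21.7 CPM.

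*Itga9* (ENSMUSG00000039115, chr9:118606690-118901003, plus strand) had 2, 5, 1 and 5 counts in untreated and 3, 13, 9 and 14 counts in treated libraries. The groups overlapped, at 0.0436 to 0.253 CPM and 0.162 to 0.632 CPM. The mean was 0.145 ± 0.0935 CPM without and 0.445 ± 0.204 CPM with TGFβ1, and an exact two-sided permutation test gave p = 0.0857, where 0.0286 is the smallest possible. The 39 against 13 counts gave a ratio of 3.17 (95% exact interval 1.66 to 6.47, counting error only). Without the filter on low counts the fit gave a log2 fold change of 1.59 and an adjusted p of 0.00230, so the call for *Itga9* depends on the filter and the test. The log2 ratio of *Itga4* to *Itga9* counts was -2.31 ± 0.824 and 0.88 ± 0.946, a difference of 3.19 that rests on few counts.

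Per length, the order of the 10 genes in untreated cells was *Itga3* (36.3 RPKM), *Itga7* (15.7), *Itgb4* (5.97), *Itga6* (3.19), *Itga1* (1.81), *Itga11* (0.632), *Itga10* (0.0854), *Itga2* (0.0219), *Itga9* and *Itga4* (0.000671 RPKM). Of the neighbours in that order, *Itga2* and *Itga9* overlapped between libraries. After TGFβ1, *Itgb4* led with 31.3 RPKM, ahead of *Itga3* (24.2), *Itga7* (7.59), *Itga6* (7.07), *Itga11* (3.08), *Itga1* (0.800), *Itga2* (0.748), *Itga10* (0.279), *Itga9* and *Itga4* (0.0544 RPKM). There, *Itga7* and *Itga6*, *Itga1* and *Itga2*, and *Itga9* and *Itga4* overlapped. With the longest transcript as the length, *Itga4* came before *Itga9* in treated cells and the order was otherwise kept. The values themselves depend on the length used. With the longest transcript, RPKM were 1.70 times as high for *Itga1*, 2.09 times for *Itga6* and 2.01 times for *Itga7*. The collagen class then summed to 3.36–4.21 and 5.20–6.15 RPKM, with *Itga1* going from 80.0% to 24.4% and *Itga11* from 17.1% to 57.0%. The laminin class summed to 81.3–91.8 and 91.1–95.4 RPKM, where the groups overlapped, with *Itga3* going from 48.7% to 30.3%, *Itga7* from 36.0% to 16.3%, *Itga6* from 7.64% to 15.8% and *Itgb4* from 7.69% to 37.6%.

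**Figure D5:**
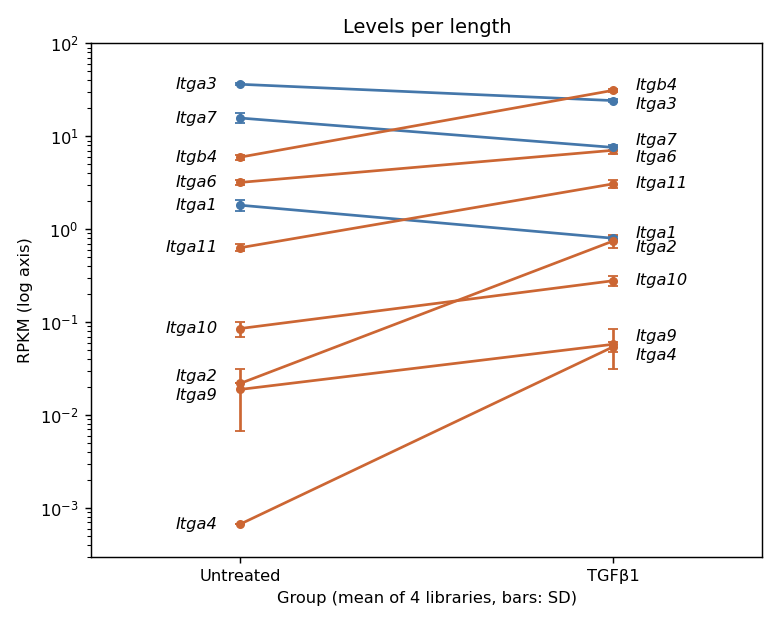
RPKM of the 10 integrin genes (log axis, mean of 4 libraries, bars SD) in untreated and TGFβ1-treated SV-LECs, with the lines of the 3 genes that fell in blue and those of the other 7, *Itga9* untested, in orange. *Itgb4* passes *Itga3*, and *Itga11* passes *Itga1*; lower bars that reach 0 or below cannot be drawn, and the untreated bars of *Itga2* and *Itga4* are left out.

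The β chains that these α chains need were measured as well. *Itgb1*, the common partner, was far more abundant than any α chain above, at 505 RPKM without and 698 RPKM with TGFβ1, and rose from 2061 ± 45.4 to 2848 ± 44.5 CPM (log2 fold change 0.47, SE 0.0368, adjusted p = 7.31e-36). *Itgb7*, the second partner of α4, had 4, 4, 0 and 0 counts in untreated and 23, 32, 31 and 27 counts in treated libraries (log2 fold change 3.82, SE 0.537), and it too met the filter in treated libraries alone. Of the 7 β genes, 6 were tested, 5 rose and 1 fell, where 37.6% of all tested genes were higher and 38.0% lower. *Itgb5*, a vitronectin receptor chain, rose with a log2 fold change of 1.15, and *Itgb8*, a chain that binds latent TGFβ, fell with -2.97. *Itgb2* and *Itgb3*, named after their values were seen, rose with 1.73 and 2.10. Of the 9 other α genes, 3 were tested and all 3 rose, namely *Itgav* (0.58), *Itga5* (0.55), the fibronectin receptor chain, and *Itga2b* (1.08).

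Among the ligands, 9 of 11 laminin chains rose, *Lama4* fell and *Lamb2* was not called (median log2 fold change 0.74). For this list and those below, 37.6% of all tested genes were higher and 38.0% lower. The most abundant, *Lamb1* and *Lamc1*, rose with log2 fold changes of 0.83 (SE 0.0478) and 0.31 (SE 0.0430). The largest changes were in *Lamb3* (3.84, from 24 untreated to 331 treated counts) and *Lama3* (3.58, from 11 to 129 counts), chains of laminin-332, a ligand of α3β1 and α6β4. *Lamb3*, *Lama3* and *Lamc3* met the filter in treated libraries alone, like *Col2a1* and *Col17a1* below, so their calls are descriptions. *Lamc3*, named after its value was seen, rose with 2.09 from 12 to 50 counts. *Lama4*, named after its value was seen, changed by -0.62. Of 12 collagen genes, 11 were tested, 5 rose, 4 fell and 2 were not called (median -0.06). The abundant *Col5a2* fell by 0.31 on the log2 scale, and *Col1a2* was not called (-0.08, SE 0.0599, adjusted p = 0.206). *Col2a1*, the collagen of cartilage, rose with 4.26 from 24 to 445 counts, and *Col11a1*, its fibril partner, rose with 3.95 from 31.9 ± 3.62 to 494 ± 11.3 CPM. Named after their values were seen, *Col1a1* (0.81, from 3456 ± 610 to 6050 ± 529 CPM), *Col5a1* (0.83) and *Col4a1* (0.27) also rose, *Col3a1* (-0.92), *Col6a1* (-1.30) and *Col6a2* (-1.21) fell, and *Col4a2* (-0.06) was not called.

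Of 9 ligands of α4 and α9, 8 were tested, 5 rose and 3 fell (median 0.35). *Fn1*, fibronectin, rose from 6409 ± 300 to 9977 ± 626 CPM (log2 fold change 0.64) and *Vcam1*, the endothelial counter-receptor of α4β1, rose with 0.41. *Vegfc*, a lymphatic growth factor that α9β1 also binds, rose with 3.69 (SE 0.185), while the related *Vegfd* fell by 1.15 (SE 0.0607) on the log2 scale. *Madcam1*, the ligand of α4β7, was under the filter, with 10 untreated and 14 treated counts.

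Partners of the laminin receptors in the membrane and in hemidesmosomes moved both ways, with 5 of 9 tested genes higher, 3 lower and 1 not called (median 0.25). *Plec*, the plectin that β4 binds, rose with a log2 fold change of 1.54 (SE 0.0815), and *Col17a1*, a transmembrane hemidesmosome collagen, went from 3 to 140 counts (5.40, SE 0.846). *Cd81* and *Cd63*, the most abundant tetraspanins of the list, rose with 0.49 and 0.25. *Cd151*, the tetraspanin that binds α3β1 and α6 integrins most tightly, fell by 0.62, and *Krt14* was not called; these were named after their values were seen. The epithelial keratin *Krt14* stood at 37.0 ± 2.41 CPM without and 38.8 ± 2.71 CPM with TGFβ1, whereas the epithelial markers *Epcam*, *Cdh1* and *Krt5* together came to 0.101–0.488 CPM in untreated and 0.491–0.969 CPM in treated libraries. Of 8 other receptors for collagen or laminin, 6 were tested, 1 rose, 4 fell and 1 was not called (median -0.33). *Dag1*, dystroglycan, fell by 0.58, *Ddr2*, a collagen-activated kinase, by 0.64 and *Rpsa*, a ribosomal protein also called the laminin receptor, by 0.32.

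The genes whose pattern over the 8 libraries lay closest to that of *Itga1*, which had the largest fall, were found by the Euclidean distance of mean-centred log2 CPM. For *Itga4*, which had the largest fitted rise, the pattern is set by the count added before taking logs, and no such genes are given. Those nearest *Itga1* were *Kif7* (0.149), *Pold2* (0.150) and *Dgcr6* (0.189).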

How the data were processed

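RNA from SV-LECs was sequenced with a stranded poly(A) kit in single-end reads. The authors deposited counts per gene, whole numbers with no normalization. Per the submitters' processing notes the tools were bcl2fastq 2.20.0.422, STAR 2.7.3a and featureCounts 1.5.1 with GRCm38 (mm10). Annotation release and strand setting are not given in the sources used here. Groups came from the labels, and 0 columns lacked a sample.

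Here, genes were filtered with filterByExpr and scaled by TMM, and edgeR 4.0.16 (R 4.3.3) was fitted with glmFit and glmLRT, prior count 0.125, following the study's methods in place of the quasi-likelihood test. P-values were adjusted by Benjamini-Hochberg over 13818 genes and called under 0.05. CPM used TMM-scaled totals. RPKM used union exon lengths of GENCODE M21, which matched 55230 of 55471 genes. Ratios used counts plus 0.5 and an exact permutation test. Alternatives were the quasi-likelihood test, DESeq2 1.42.0, its size factors, total counts, other filters, a prior count of 2, the replicate block, each library left out, a pseudocount of 1 and longest transcripts. The procedure was also run on simulated data, in which far fewer genes changed than here and no change was as large as those of *Itga2* and *Itga4*. That run therefore does not test calls of such a kind. Totals of 18952504 to 26386941 counts limit the precision of genes with few counts, and intervals cover counting error only.

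The 10 genes and 7 lists of related genes were chosen with earlier results of these data known. Named were all members, *Itgb1*, *Itgb7*, in each list the 2 most abundant tested genes and the 2 with the largest called change, the 3 nearest patterns of 2 members (those of *Itga4* are left out), and genes overlapping member exons. Genes beyond that rule are marked in the text or are markers.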

Additional observations from a re-analysis of the deposited data

Results flagged for a closer look

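Among 30 groups of 4 libraries, 2 had a library far from the others by Dixon's ratio, where chance gives about 5%. *Itga4* was at 0.0375 CPM in untreated library 2 and at 0 in the other untreated libraries, a difference of 1 count. The log2 ratio of *Itga6* to *Itga3* counts was -3.01 in untreated library 1 and between -2.80 and -2.79 in the other untreated libraries (Dixon ratio 0.936), still below all treated libraries (-1.22 to -0.93).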

How the results depend on the processing

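The direction and the call of the fold change were kept in 143 of 143 combinations of the 9 tested integrin genes with an alternative setting, over at most 16 settings a gene. For *Itga2*, *Itga10* and *Itga4* this says little, because they were tested through their treated libraries. With a prior count of 2 the adjusted p-values are those of the main fit, so the calls in that setting could not differ. *Itga4* varied most, from 3.04 with a prior count of 2 to 7.01 without untreated replicate 2, and it did not pass the filter of 1 CPM in 4 libraries. The counts of 6 higher and 3 lower genes held in each library left out, and the number with all treated above all untreated libraries was 6 to 7, the added gene being *Itga9* without treated replicate 1. Without the filter, 7 other integrin α genes were called higher against 3, as more genes were tested (6385 higher and 5755 lower of 27709, against 5198 and 5251 of 13818). The added genes, *Itga8*, *Itgae*, *Itgal* and *Itgam*, had at most 5 counts in any library. For *Itgal* and *Itgam* the groups overlapped. Among other receptors, 2 genes were higher with DESeq2 size factors and 2 with the 1 CPM filter, and 1 to 2 with a library left out; the added gene was *Bcam*, which passed without untreated replicate 1, untreated replicate 2 or treated replicate 1. Of laminin chains 1 to 2 were lower, *Lamb2* being added without untreated replicate 4. With a library left out, the smallest p of the ratio tests was 0.0571, so none could pass, and the differences were 1.67 to 1.76 for *Itga6* over *Itga3*, -1.31 to -1.20 for *Itga6* over *Itgb4*, -7.07 to -5.96 for *Itga1* over *Itga2*, -0.66 to -0.55 for *Itga10* over *Itga11* and 2.73 to 3.43 for *Itga4* over *Itga9*. Same-numbered libraries did not deviate together (correlations -0.193 to -0.0336). Whether they shared a culture or a preparation was not tested, and these correlations cannot show it. With the replicate block, 5075 genes were higher and 5077 lower, the integrin counts stayed at 6 and 3, and no untreated library correlated best with its own number. In the blocked sign-flip test the ratio differences were again 1.73, -1.24, -6.63, -0.60 and 3.19, with p = 0.125 (exact), the smallest it allows. Scaling by total counts moved the median of all genes by -0.07 and the calls to 4627 higher and 5899 lower genes, and 5 collagen genes were then lower against 4, with *Col1a2* added, while the integrin counts stayed at 6 and 3. Genes of a few counts per library, *Itga4*, *Itga9* and untreated *Itga2*, are those whose size of change is limited by depth.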
